A study of Mus musculus with 4 samples.

Results

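The 9 miRNAs described here are products of 5 hairpins, mir-770, mir-673, mir-337, mir-540 and mir-665, at the Meg3 side of the imprinted Dlk1-Dio3 region of the mouse. They were chosen by name, from 1029 miRNA names in the table, as mmu-miR-770-3p, mmu-miR-770-5p, mmu-miR-673-3p, mmu-miR-673-5p, mmu-miR-337-3p, mmu-miR-337-5p, mmu-miR-540-3p, mmu-miR-540-5p and mmu-miR-665-3p (written without mmu from here on), and all 9 were measured. They were carried by 476 of the 85704 sequences in the table. The material was the Ago-bound RNA (RISC-bound short RNAs, R-sRNAs) of the brain, cortex and hippocampus combined, of BL6 mice, which the methods give as C57BL/6J males. Ago-RP-Seq was used, in which a GW182 (T6B) peptide pulls the Ago proteins out of a lysate and the bound small RNAs are sequenced. Young mice of 2 months (2 libraries) were compared with old mice of 18 months (2 libraries), to ask whether the content of the RISC differs with age. The sources name no transgene and no treatment for these mice. The sources do not say whether each library is a separate animal or a pool, so p-values measure only the spread between these libraries. The labels give 250 mg of tissue for each library and the methods give a smaller amount.

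A miRNA hairpin is cut by Drosha and Dicer into a short duplex, and either strand, the 5p arm or the 3p arm, can be loaded into an Ago protein. The loaded strand finds its targets mainly through the seed near its 5′ end, so a shift of the start by a single base gives the miRNA another seed. In the Dlk1-Dio3 region the noncoding RNAs, among them Meg3 (also called Gtl2), the transcript antisense to Rtl1, Rian and Mirg, are expressed from the maternal chromosome, while Dlk1 and Rtl1 are expressed from the paternal chromosome. The region holds one of the largest miRNA clusters of placental mammals, and its miRNAs are known for their expression in the brain. Adenosine in double-stranded RNA can be deaminated to inosine, which is read as G in sequencing.

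On the GRCm38.p6 assembly all 5 hairpins lie on the plus strand of chromosome 12. The mir-770 hairpin, at 109563692 to 109563785, lies in an exon of the lincRNA gene Meg3 (109541001 to 109571726). The mir-673 hairpin, at 109571990 to 109572080, starts 264 bases past the annotated end of Meg3. The mir-337 (109585789 to 109585885), mir-540 (109586080 to 109586146) and mir-665 (109586314 to 109586407) hairpins stand close together 14063 to 14588 bases past that end, and 194 and 167 bases separate them. They lie before Rtl1 (109589193 to 109600330, minus strand). None of the 4 hairpins outside Meg3 overlaps another gene that is not a miRNA, so only the miRNAs of mir-770 are within Meg3 as annotated.

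The mature sequences of RefSeq are shown first because every form described further on is counted from them. Bases 2 to 8, the seed, are in capitals. All 9 miRNAs matched an entry.
miR-770-5p: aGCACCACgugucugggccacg
miR-770-3p: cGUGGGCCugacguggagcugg
miR-673-5p: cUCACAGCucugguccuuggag
miR-673-3p: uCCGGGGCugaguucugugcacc
miR-337-5p: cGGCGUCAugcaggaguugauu
miR-337-3p: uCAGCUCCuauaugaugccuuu
miR-540-5p: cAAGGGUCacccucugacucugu
miR-540-3p: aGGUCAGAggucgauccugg
miR-665-3p: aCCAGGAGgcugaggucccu
The 9 seeds are 9 different sequences, so the group shares a place in the genome and no seed. The GC content ran from 40.9% (miR-337-3p) to 72.7% (miR-770-3p).

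The levels are in CPM, reads scaled to the same total in each library, as the authors normalized them. Each nonzero value was a whole multiple of what 1 read was worth, and the libraries rested on 10484940 and 11388999 reads at 2 months and 10575081 and 9067007 reads at 18 months. At these depths 3 reads corresponded to 0.263 to 0.331 CPM, and intervals and floors cover counting error only, since PCR copies are not independent molecules. In the check of the labelled tissue, the neuronal miR-124-3p had 69405 to 107034 CPM, the oligodendrocyte miR-338-3p 3232 to 5679 CPM and the liver miR-122-5p 5.01 to 7.11 CPM. Markers of other cells of the dissected tissue were present too, with 2557 to 9242 CPM for the endothelial miR-126a-3p, 878 to 1810 CPM for the red blood cell miR-451a and 5751 to 12508 CPM for the epithelial miR-200b-3p. Of these, miR-200b-3p was higher at 18 months (12508 and 10995 CPM against 5751 and 7965 CPM). Lower at 18 months were miR-126a-3p (2557 and 6489 CPM against 9242 and 8854 CPM) and miR-124-3p (98222 and 69405 CPM against 104115 and 107034 CPM). The ages overlapped for miR-338-3p and miR-451a. They also overlapped for other neuronal miRNAs. These were miR-9-5p (27655 and 43876 CPM at 18 months against 42830 and 25548 CPM), miR-128-3p (69829 and 55904.5 CPM against 37433 and 62462 CPM) and miR-137-3p (1012 and 1507 CPM against 1734 and 1427 CPM). Whether the make-up of the tissue has a part in the age differences below was not tested. In such bulk tissue, fewer cells of a type and less of an RNA per cell cannot be told apart.

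The 9 miRNAs were of middle and low abundance in the RISC. Together they held 1576 CPM in replicate 1 and 1963 CPM in replicate 2 of the young mice, and 1289 CPM and 1499 CPM in those of the old mice, between 0.129% (0.127% to 0.131%, a 95% Wilson interval as for all shares) and 0.196% (0.194% to 0.199%) of a library. The young mice had a mean of 1770 ± 274 CPM (SD, n = 2) and the old mice a mean of 1394 ± 148 CPM (SD, n = 2), and the libraries of the ages did not overlap. With the libraries rescaled by their median of ratios the sums were 1436 and 1842 CPM in the young and 1406 and 1576 CPM in the old mice, so the ages overlapped, and the difference went from -376 to -148 CPM. A mean over the 4 libraries placed miR-770-5p highest, at rank 166 among all miRNA names, followed by miR-337-5p (rank 183), miR-337-3p (212), miR-770-3p (225), miR-540-3p (260), miR-673-5p (275), miR-665-3p (289), miR-540-5p (293) and miR-673-3p (454). A CPM counts reads of whole small RNAs with a mean length of 21.2 to 23.3 nt, so levels were compared without a correction for length. Between neighbours of this order the libraries overlapped except at 2 steps, from miR-770-3p to miR-540-3p and from miR-540-5p to miR-673-3p. miR-337-3p in replicate 1 at 18 months (85.3 CPM) was also below miR-540-3p and miR-673-5p of the same library (115 and 91.3 CPM), so the order was not settled by 4 libraries.

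**Figure D1:**
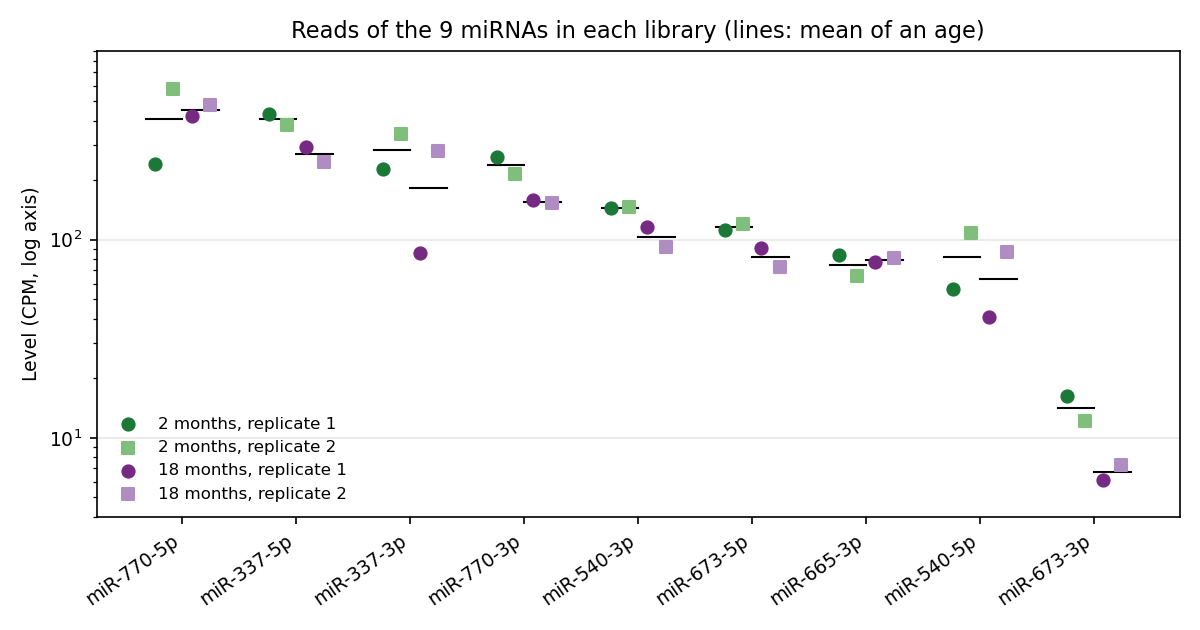
Level of each miRNA (CPM, log axis) in the 4 libraries, with green points for 2 months, purple points for 18 months, circles for replicate 1, squares for replicate 2 and a line at the mean of each age. miR-337-3p in replicate 1 at 18 months (85.3 CPM) and miR-770-5p in replicate 1 at 2 months (241 CPM) stand apart from their other libraries, and miR-540-5p is low in both replicates 1 and high in both replicates 2.

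Of the arms of mir-770, the hairpin inside Meg3, the 3p arm fell and the 5p arm did not pass the test, and whether the arms differ in their change was not tested. miR-770-3p had 262 and 214 CPM in the young and 159 and 153 CPM in the old mice. Both 18-month libraries were below both 2-month libraries, and the arm fell by 0.60 on the log2 scale (standard error 0.22, unadjusted p = 0.0295, adjusted p = 0.266, limma). This p was 0.154 without replicate 1 at 2 months, 0.0714 without replicate 1 at 18 months and 0.0935 without replicate 2 at 18 months. miR-770-5p, the most abundant of the group, had 241 and 576 CPM in the young and 420 and 480 CPM in the old mice. Its ages overlapped, with replicate 1 at 2 months far below the other 3 libraries, and the log2 change of 0.27 (standard error 0.41, adjusted p = 0.745) was within the spread. The sign of that change rested on this library, with -0.36 without it and 0.89 (limma, unadjusted p = 0.0137) without replicate 2 at 2 months. For both arms together, mir-770 had 504 and 790 CPM in the young and 579 and 633 CPM in the old mice. Between the ages this hairpin changed by -0.06 (log2, with an error of 0.27 and adjusted p = 0.912), and the change was 0.15 after rescaling by the median of ratios, 0.14 with edgeR and 0.12 with DESeq2, 0.26 without replicate 2 at 2 months and 0.00308 without replicate 1 at 18 months.

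Both arms of mir-673 were lower in the 18-month libraries than in the 2-month libraries. miR-673-5p, which shares bases 2 to 7 (UCACAG) with the miR-27 family, had 112 and 119 CPM in the young and 91.3 and 73.1 CPM in the old mice. The ages did not overlap, and the log2 difference of -0.50 (standard error 0.22, unadjusted p = 0.0664, adjusted p = 0.333, limma) did not pass the threshold except without replicate 1 at 18 months (-0.66, unadjusted p = 0.0467). miR-673-3p, the rarest of the 9, had 16.3 and 12.1 CPM in the young and 6.15 and 7.28 CPM in the old mice, or 171, 138, 65 and 66 reads. It fell by 0.97 on the log2 scale (standard error 0.31, unadjusted p = 0.0202, adjusted p = 0.263, limma), or by 0.71 with a pseudocount of 5. With a mean of 10.5 CPM it passed the minimum of 10 CPM only through its 2-month libraries, and with no minimum its p was 0.0223. Its p was 0.0788 without replicate 1 at 2 months and 0.0941 and 0.0545 without replicate 1 or 2 at 18 months. The hairpin as a whole fell by 0.55 (standard error 0.17, unadjusted p = 0.0310, adjusted p = 0.220, limma), from 129 and 132 CPM to 97.5 and 80.4 CPM. Its p was 0.115, 0.135 and 0.0784 without replicate 1 or 2 at 2 months or replicate 2 at 18 months.

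Of the arms of mir-337, the 5p arm was steady within an age and the 3p arm was not. miR-337-5p had 432.1 and 380.6 CPM in the young and 295 and 246 CPM in the old mice, with no overlap. It fell by 0.59 on the log2 scale (standard error 0.22, unadjusted p = 0.0326, adjusted p = 0.266, limma), and its p was 0.121 without replicate 1 at 2 months and 0.159 without replicate 2 at 18 months. miR-337-3p had 227 and 340.6 CPM in the young and 85.3 and 281 CPM in the old mice. Replicate 1 at 18 months was by far the lowest, the replicates of that age differed by 1.71 on the log2 scale, and the ages overlapped. The log2 difference of -0.84 (standard error 0.55, adjusted p = 0.442) became 0.015 without that library and -1.69 (limma, unadjusted p = 0.00357) without replicate 2 at 18 months. In the same library the red blood cell miRNA miR-144-3p was also lowest, with 354 CPM against 919 and 1564 CPM at 2 months and 1134 CPM in replicate 2 at 18 months, while miR-451a was not (1344 CPM). The blood cell miR-142a-3p (239 CPM against 259 to 462 CPM) and the endothelial miR-126a-3p (2557 CPM against 6489 to 9242 CPM) were lowest there as well. So were the neuronal miR-137-3p (1012 CPM against 1427 to 1734 CPM) and the oligodendrocyte miR-338-3p (3232 CPM against 4391 to 5679 CPM). The smooth muscle miR-143-3p was lowest there too (2565 CPM against 3051 to 3767 CPM). Among markers not lowest there were the neuronal miR-124-3p (98222 CPM), the oligodendrocyte miR-219a-2-3p (887 CPM) and the smooth muscle miR-145a-5p (2468 CPM). Whether blood, vessels or other cells have a part in the level of miR-337-3p was not tested. The mir-337 hairpin fell by 0.62 (standard error 0.22, unadjusted p = 0.0426, adjusted p = 0.276, limma), from 660 and 721 CPM to 380 and 527 CPM, and its p was 0.0529, 0.102 and 0.158 without replicate 1 or 2 at 2 months or replicate 1 at 18 months.

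miR-540-3p had 144 and 146 CPM in the young and 115 and 91.4 CPM in the old mice. The ages did not overlap, with a log2 difference of -0.49 (standard error 0.22, unadjusted p = 0.0667, adjusted p = 0.333, limma) and -0.66 (unadjusted p = 0.0449) without replicate 1 at 18 months. miR-540-5p had 56.1 and 108 CPM in the young and 40.9 and 86.2 CPM in the old mice, so that both replicates 2 were above both replicates 1. Its log2 difference of -0.39 (standard error 0.45, adjusted p = 0.659) was 0.082 without replicate 2 at 2 months and 0.14 without replicate 1 at 18 months. The mir-540 hairpin, with 200 and 254 CPM in the young and 156 and 178 CPM in the old mice, had a log2 difference of -0.44 (standard error 0.19, unadjusted p = 0.0841, adjusted p = 0.301, limma).

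miR-665-3p varied least among the libraries, with 83.5 and 65.9 CPM in the young and 76.8 and 81.0 CPM in the old mice, 1.27-fold from lowest to highest. The log2 difference between the ages was 0.09 (standard error 0.23, adjusted p = 0.865), and -0.083 without replicate 2 at 2 months. The other arm, miR-665-5p, which is not among the 9, had 3.53 and 4.65 CPM in the young and 7.66 and 2.43 CPM in the old mice. With it, the hairpin had 87.1, 70.5, 84.4 and 83.4 CPM, with a log2 difference of 0.10 (standard error 0.18, adjusted p = 0.768) that was -0.053 without replicate 2 at 2 months.

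miR-673-3p is left out of the counts that follow, since it passed the minimum only through the age at which it was high. Of the other 8 miRNAs, 2 fell at an unadjusted p under 0.05 (the threshold that the methods set), miR-770-3p and miR-337-5p, and none rose. Over all 456 miRNAs tested, 12.1% were called lower and 4.17% higher (55 and 19), a split that became 25 lower and 39 higher when the libraries were rescaled by their median of ratios. Of the 8, 6 had a log2 difference below 0, as did 68.4% of all miRNAs tested. Both 18-month libraries were below both 2-month libraries for 4 of the 8, a pattern found in 41.4% of all miRNAs tested. The median log2 difference of the 8 was -0.50, against -0.22 over all tested miRNAs. With this rescaling the medians were -0.29 and -0.01, and 0 of the 9 had p under 0.05. None of the 8 passed with edgeR or DESeq2, where miR-673-3p had an unadjusted p of 0.0427 and 0.0396. After adjustment over all miRNAs none of the 9 passed in limma, edgeR or DESeq2, with adjusted p from 0.263 to 0.865 in limma. Of the 5 hairpins, mir-673 and mir-337 fell, against 13.8% of 319 hairpins called lower and 3.13% called higher, and both lost their call after rescaling and with edgeR and DESeq2.

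**Figure D2:**
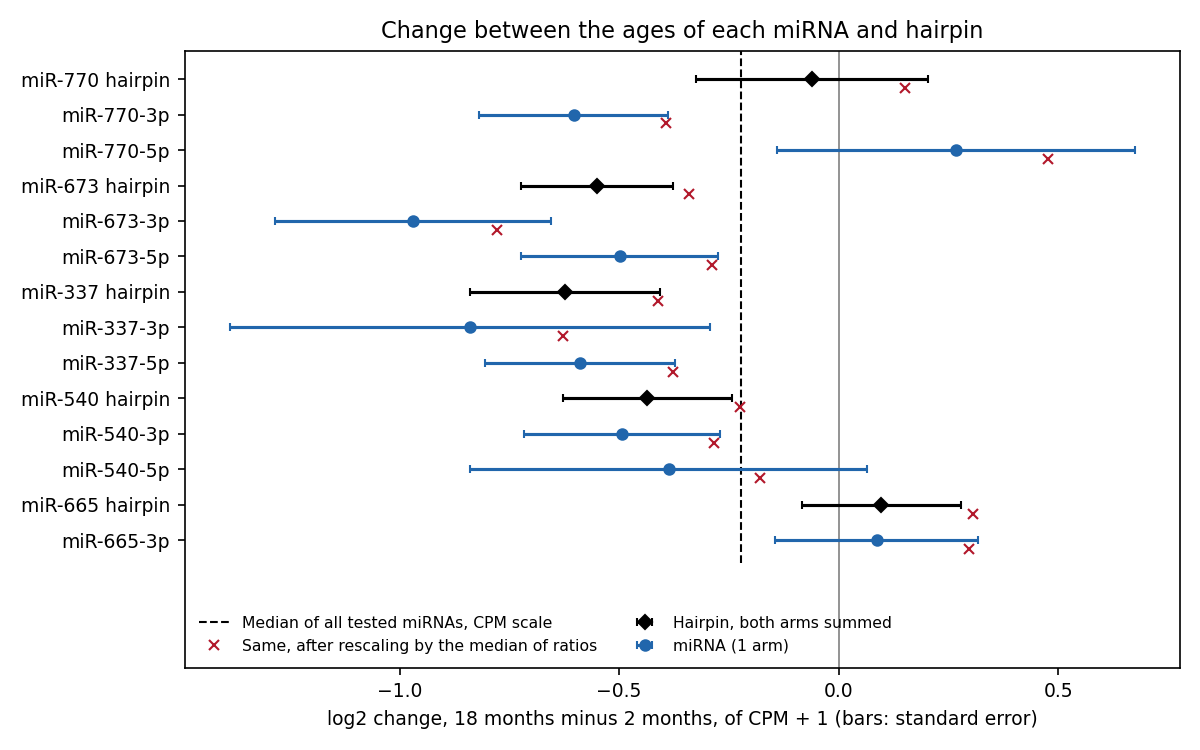
log2 change from 2 to 18 months of each miRNA (blue circles) and hairpin (black diamonds) with its standard error, the same after rescaling by the median of ratios (red crosses), and the median of all tested miRNAs at -0.22 (dashed line). Of the miRNAs, miR-770-5p and miR-665-3p lie right of 0 and the other 7 lie left of the dashed line, and rescaling moves every point to the right.

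The hairpins differed in the arm they gave to the RISC. For mir-673 the 5p arm led in every library. The 3p arm held 12.7% (10.998% to 14.5%) and 9.21% (7.85% to 10.8%) of reads of both arms in the young mice and 6.30% (4.98% to 7.96%) and 9.05% (7.18% to 11.4%) at 18 months. The shares of the ages differed by -3.26 percentage points, with an exact permutation p of 0.333, the smallest that 2 libraries against 2 can give, so this design cannot reach 0.05 for such a share. The difference was -1.53 points without replicate 1 and -4.99 points without replicate 2 at 2 months, and -1.63 points with sequences of at least 1 CPM only (exact permutation p = 0.667). For mir-665 the 3p arm led in every library, with 90.9% to 97.1% of the reads.

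For mir-337, mir-770 and mir-540 both arms were well represented and their balance varied between replicates. The 3p arm of mir-337 held 34.5% (33.4% to 35.6%) and 47.2% (46.1% to 48.3%) of reads in the young mice and 22.5% (21.2% to 23.8%) and 53.4% (51.9% to 54.8%) at 18 months, so the leading arm was not the same in the 18-month replicates. The 3p arm of mir-770 held 52.1% (50.7% to 53.4%) and 27.1% (26.2% to 28.1%) at 2 months and 27.5% (26.4% to 28.6%) and 24.1% (23.0% to 25.2%) at 18 months. Here replicate 1 at 2 months stood apart, and without it the difference between the ages was -1.33 in place of -13.8 percentage points (exact permutation p = 0.667). The 3p arm of mir-540 led in all 4 libraries, with 72.0% (70.0% to 73.9%) and 57.4% (55.6% to 59.2%) at 2 months and 73.9% (71.7% to 75.9%) and 51.5% (49.0% to 53.9%) at 18 months. For mir-540 the intervals of the replicates 1 overlapped across the ages and those of the replicates 2 did not. Both replicates 1 were above both replicates 2. The differences between the ages were -2.95 points for mir-337 and -2.04 points for mir-540 (exact permutation p = 1 for each). They changed sign when a library was left out, to 3.42 points for mir-337 without replicate 2 at 2 months and 12.5 points without replicate 1 at 18 months, and to 5.26 and 9.16 points for mir-540 without replicate 1 at 2 months or replicate 2 at 18 months.

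**Figure D3:**
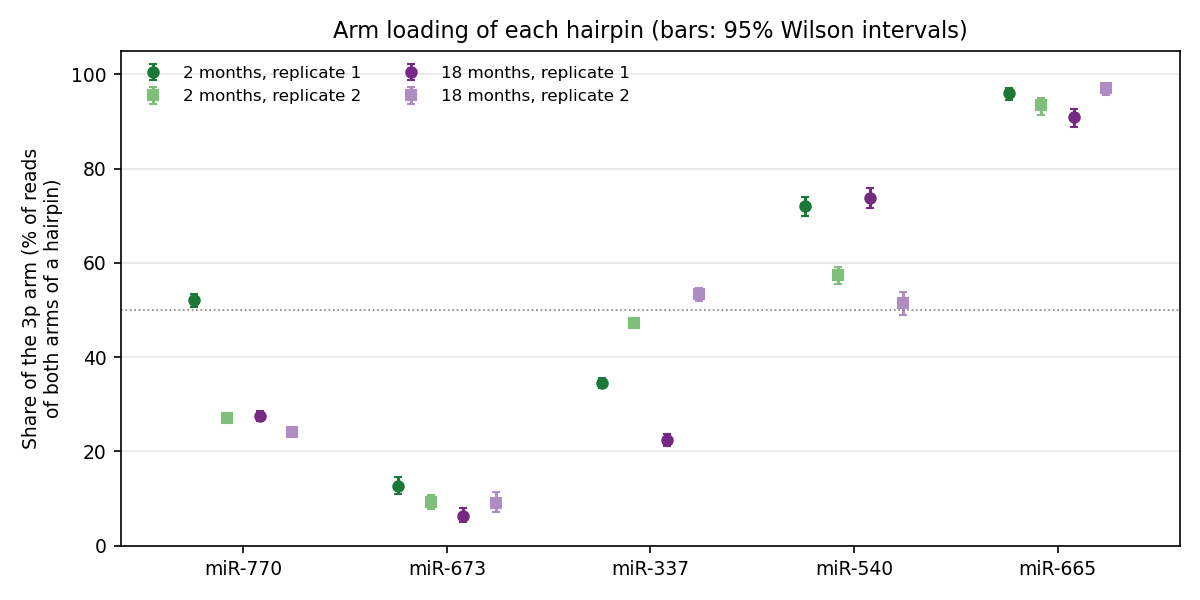
Share of the 3p arm among the reads of both arms of each hairpin in the 4 libraries, in percent, with 95% Wilson confidence intervals and a dotted line at equal arms. mir-673 stays at 12.7% or less and mir-665 at 90.9% or more, while the libraries of mir-337 spread from 22.5% to 53.4%.

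The start of a miRNA sets its 6mer seed, bases 2 to 7 of the read, and the table gives for each seed a viability. It is the mean viability, in percent of the control, of 3 mouse cell lines transfected with a duplex that carries the seed, so a low value marks a toxic seed. miR-770-3p was the miRNA of the 9 with the most divided starts. Its most abundant sequence begins 1 base downstream of the RefSeq start, the RefSeq sequence came next, and another form begins 2 bases downstream. These 3 forms are printed with the 6mer seed in capitals.
miR-770-3p, 1 base downstream: gUGGGCCugacguggagcugg
miR-770-3p, RefSeq start: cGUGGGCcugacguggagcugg
miR-770-3p, 2 bases downstream: uGGGCCUgacguggagcuggu
Reads that start 1 base downstream made up 51.6% (49.7% to 53.5%) and 45.6% (43.6% to 47.6%) of the miR-770-3p reads in the young mice and 59.3% (57.0% to 61.7%) and 47.9% (45.3% to 50.6%) at 18 months. The ages overlapped (exact permutation p = 0.667), and without replicate 1 at 18 months the difference was -0.65 in place of 5.05 percentage points. All 3 forms have a seed of low viability, 26.2% for the downstream start (UGGGCC), 21.4% for the RefSeq start (GUGGGC) and 21.5% for the start 2 bases downstream (GGGCCU). The form with the RefSeq start had 29.9 and 33.1 CPM in the young and 12.4 and 19.1 CPM in the old mice, and it fell by 0.99 (standard error 0.33, unadjusted p = 0.0157, adjusted p = 0.392, limma). The form 1 base downstream had 43.3 and 36.5 CPM and then 33.1 and 25.4 CPM, a log2 difference of -0.44 (standard error 0.32, adjusted p = 0.672). Whether the forms differ from each other in their change was not tested.

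miR-337-3p had a second start as well, 1 base upstream of RefSeq, which lowers the viability of its seed from 51.7% (CAGCUC) to 28.6% (UCAGCU). The most abundant sequence of each start is printed with its 6mer seed in capitals.
miR-337-3p, RefSeq start: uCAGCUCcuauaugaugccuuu
miR-337-3p, 1 base upstream: uUCAGCUccuauaugaugccu
The upstream start made up 19.0% (17.5% to 20.7%) and 12.8% (11.8% to 13.9%) of reads in the young mice and 24.3% (21.6% to 27.2%) and 16.8% (15.4% to 18.3%) at 18 months, with overlapping ages (exact permutation p = 0.667). The RefSeq form had 142 and 243 CPM in the young and 37.9 and 183 CPM in the old mice. The upstream form had 21.6 and 25.7 CPM and then 14.8 and 30.1 CPM. The low library, replicate 1 at 18 months, was thus lowest for both forms.

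The other members kept mainly to 1 seed. The seed with most reads was carried by 96.4% to 100% of the miR-673-3p reads of a library (CCGGGG, viability 46.1%), 98.4% to 99.3% of miR-540-3p (GGUCAG, 82.0%), 95.5% to 97.9% of miR-770-5p (GCACCA, 54.9%), 92.3% to 94.7% of miR-673-5p (UCACAG, 59.0%), 91.0% to 93.6% of miR-337-5p (GGCGUC, 41.4%), 90.3% to 90.9% of miR-665-3p (CCAGGA, 53.1%) and 83.8% to 91.1% of miR-540-5p (AAGGGU, 48.8%). These shares differed between the ages by at most 3.63 percentage points (miR-540-5p, from -5.80 to -1.45 points with a library left out), and no exact permutation p was below 0.333. Some of these seeds were nearly particular to 1 miRNA in the RISC and others were not. Of all reads with the seed GGUCAG, 99.7% were miR-540-3p, and the shares were 97.6% for miR-540-5p, 95.6% for UGGGCC and miR-770-3p and 95.3% for miR-337-5p. By contrast, miR-673-5p gave 0.784% of the reads with the seed UCACAG, of which miR-27b-3p gave 56.8% and miR-27a-3p 40.4%. miR-770-5p gave 24.6% and 63.7% of the reads with GCACCA in the young and 36.6% and 41.8% in the old mice. Over the 4 libraries its share was 41.6%, beside 39.0% named miR-29a-3p.

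Weighted by reads, the seed viability of the 9 miRNAs ran from 23.9% for miR-770-3p, through 42.4% for miR-337-5p and 47.4% for miR-337-3p, to 81.8% for miR-540-3p. The mean over all reads of the 9 was 47.4% and 49.6% at 2 months and 49.8% and 49.4% at 18 months, below the 57.7% to 58.4% of all reads of the libraries. Seeds with a viability under 50% held 51.4% and 38.9% of the reads of the 9 in the young mice and 40.8% and 36.3% at 18 months, against 25.6% to 28.5% of all reads. Between the ages the mean viability differed by 1.14 percentage points, from 48.5% ± 1.56 (SD, n = 2) to 49.6% ± 0.283 (SD, n = 2). The ages overlapped (exact permutation p = 0.667).

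**Figure D4:**
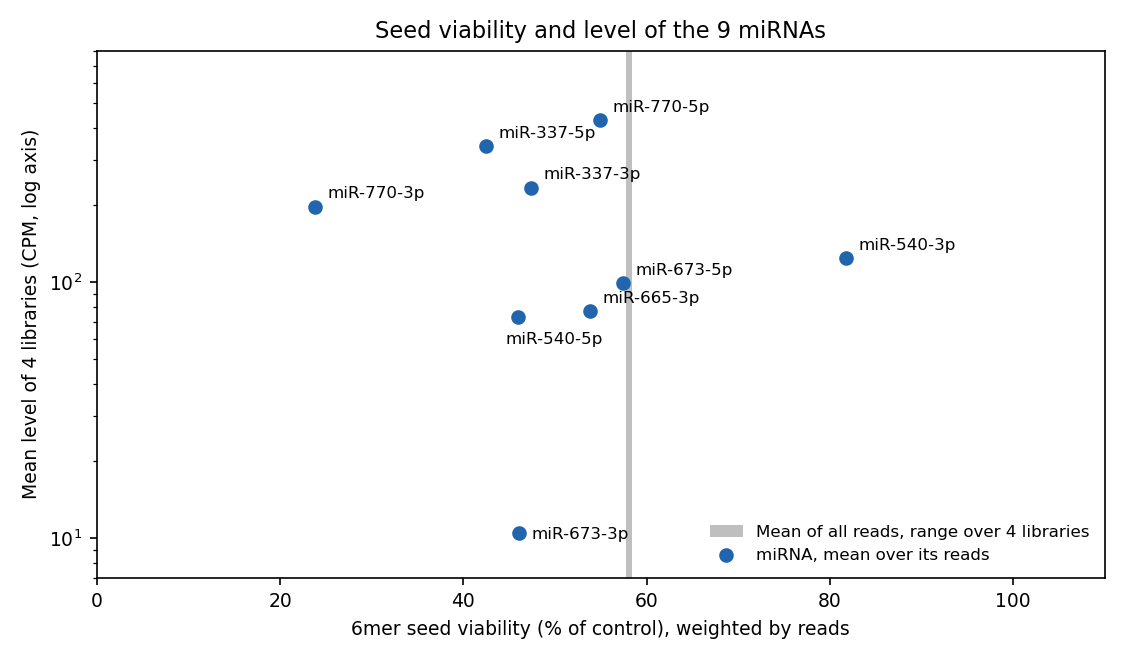
Mean level of each miRNA over the 4 libraries (CPM, log axis) against its 6mer seed viability in percent of the control, weighted by its reads, with a grey band at the mean of all reads (57.7% to 58.4%). Only miR-540-3p (81.8%) lies to the right of the band, and miR-770-3p (23.9%) lies farthest to the left.

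miR-665-3p, whose level was alike at both ages, differed in its 3′ end. Its most abundant sequences share the start and the seed (capitals) and differ by the last base, and the longer of them was chosen for description after its values were seen.
miR-665-3p, 1 base past RefSeq: aCCAGGAggcugaggucccuu
miR-665-3p, 2 bases past RefSeq: aCCAGGAggcugaggucccuua
The shorter form had 39.1 and 32.5 CPM in the young and 17.0 and 22.5 CPM in the old mice, and it fell by 0.83 on the log2 scale (standard error 0.32, unadjusted p = 0.0281, adjusted p = 0.439, limma). The longer form had 15.9 and 12.8 CPM in the young and 35.1 and 27.6 CPM in the old mice, a rise of 1.07 (standard error 0.32, unadjusted p = 0.00850, adjusted p = 0.336, limma). The shorter form was the more abundant in both 2-month libraries and the less abundant in both 18-month libraries. A share was taken among the miR-665-3p reads that have the RefSeq start and end past RefSeq. Those with 2 or more further bases made up 40.6% (37.1% to 44.1%) and 35.0% (31.3% to 38.8%) at 2 months and 69.0% (65.6% to 72.3%) and 62.4% (58.6% to 66.1%) at 18 months. The mean share was 37.8% ± 3.94 (SD, n = 2) in the young and 65.7% ± 4.65 (SD, n = 2) in the old mice. It was higher by 28.0 percentage points (exact permutation p = 0.333), and by 24.7 to 31.3 points with each library left out in turn.

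Substitutions of A by G stood out among the mismatches of the group. Positions are counted from 1 at the 5′ end of the RefSeq mature sequence, and reads of the hairpins without a miRNA name were included. Of 90 substitutions seen, 17 were A-to-G and 73 were of other kinds. Over 1% of the reads carried the substitution at 4 A-to-G sites and for 2 others, U21A and U21C near the 3′ end of miR-337-3p (1.44% and 1.31%). The 4 sites were A10G and A3G of miR-337-3p, A3G of miR-540-5p and A4G of miR-770-5p. The most abundant read of each is printed with the G in capitals.
miR-337-3p, A10G: ucagcuccuGuaugaugccuuu
miR-540-5p, A3G: caGgggucacccucugacucugu
miR-770-5p, A4G: agcGccacgugucugggccacgu
miR-337-3p, A3G: uucGgcuccuauaugaugccu
A10G of miR-337-3p, outside the seed, was carried by 9.82% (8.75% to 11.01%) and 10.3% (9.44% to 11.2%) of reads in the young mice and 10.3% (8.60% to 12.3%) and 12.5% (11.4% to 13.7%) at 18 months. All 1196 of its reads, in 19 sequences, had no miRNA name in the table, so they are outside the levels of miR-337-3p given here.

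A3G of miR-540-5p lies in the seed and turns AAGGGU (viability 48.8%) into AGGGGU (27.5%). It was carried by 11.5% (9.19% to 14.4%) and 6.41% (5.18% to 7.90%) of reads in the young mice and 8.82% (6.49% to 11.9%) and 15.7% (13.3% to 18.4%) at 18 months. The ages overlapped, with a difference of 3.29 percentage points (exact permutation p = 0.667) that was -0.15 without replicate 2 at 18 months. A4G of miR-770-5p turns GCACCA (54.9%) into GCGCCA (61.0%) and was carried by 2.28% (1.77% to 2.93%) and 2.08% (1.77% to 2.46%) of reads in the young mice and 2.38% (1.97% to 2.87%) and 1.23% (0.946% to 1.60%) at 18 months. Its difference of -0.38 points was 0.20 without replicate 2 at 18 months. A3G of miR-337-3p was carried by 0.300% (0.152% to 0.590%) and 1.24% (0.948% to 1.61%) at 2 months and 3.27% (2.35% to 4.53%) and 1.41% (1.05% to 1.90%) at 18 months. For this site the ages did not overlap, and the exact permutation p was again 0.333. The share of replicate 1 at 2 months rested on 8 reads. The most abundant read with this substitution starts 1 base upstream of RefSeq. Its seed is UCGGCU (67.3%), in place of the UCAGCU (28.6%) of that start. The origin of these G bases was not tested.

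**Figure D5:**
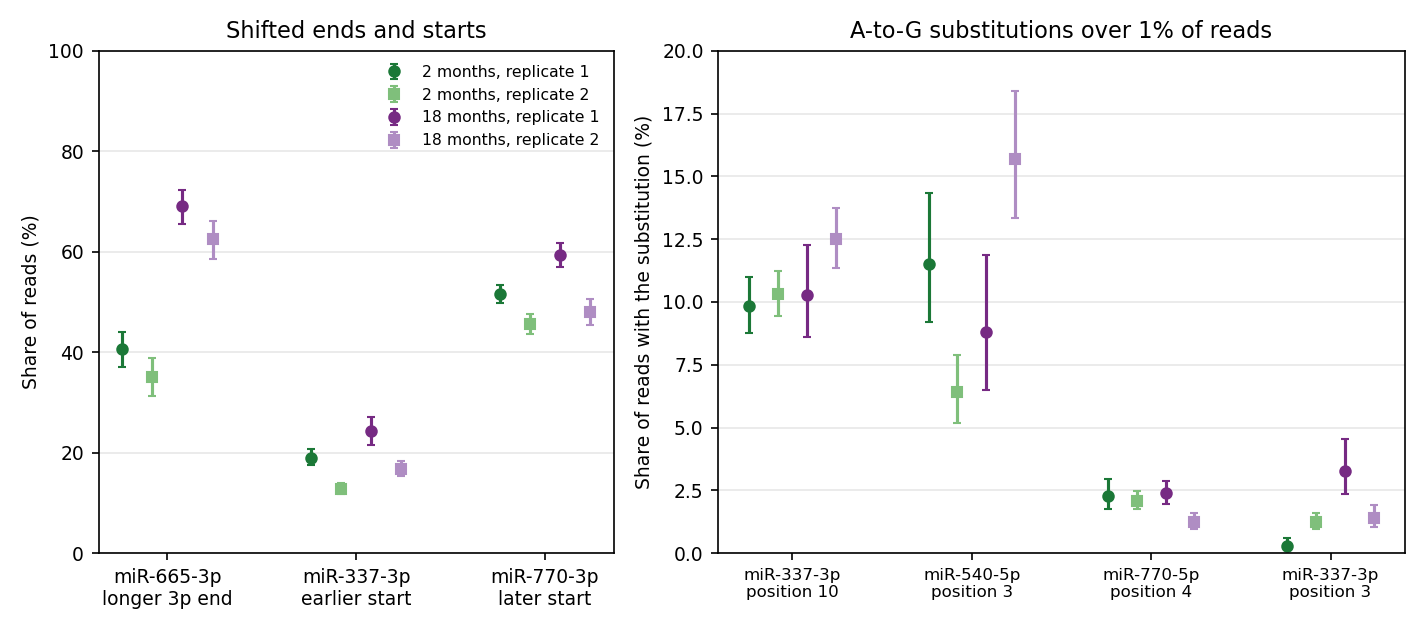
Left, share of miR-665-3p reads with 2 or more bases past the RefSeq end (of those with any and with the RefSeq start), of miR-337-3p reads starting 1 base upstream and of miR-770-3p reads starting 1 base downstream. Right, share of reads with each A-to-G substitution over 1%, by miRNA and position. Points are the 4 libraries with 95% Wilson confidence intervals, in percent; the ages are separated for the miR-665-3p end (35.0% and 40.6% against 62.4% and 69.0%) and overlap for both starts.

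At the level of sequences, 119 of the 476 passed the minimum mean of 1 CPM. Of these, 11 fell and 3 rose at an unadjusted p under 0.05, where 4.23% of all 14287 tested sequences were called lower and 5.87% higher, and none passed after adjustment (lowest adjusted p = 0.301, limma). The sequences that fell were 3 of 29 of miR-770-3p, 3 of 16 of miR-337-5p, 2 of 11 of miR-540-3p and 1 each of miR-673-3p, miR-337-3p and miR-665-3p. Those that rose were 2 of 10 of miR-665-3p and 1 of 15 of miR-770-5p. Of the 119 sequences, 91 had a log2 difference below 0, with a median of -0.43, against a median of -0.009 over all 14287 tested. They included all 16 of miR-337-5p and 26 of the 29 of miR-770-3p, but 4 of the 10 of miR-665-3p and 5 of the 15 of miR-770-5p. A sequence is part of the sum of its miRNA, so these counts repeat the level of that miRNA. The sequences of a miRNA come from the same libraries and are not independent of each other.

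The other miRNAs of the region were compared by lists of their hairpins. The 6 further names nearest the 5 hairpins, miR-493, miR-3070 and miR-665-5p, were under 10 CPM on average, and the highest of them, miR-493-5p, had 13.4 and 14.8 CPM in the young and 5.20 and 6.18 CPM in the old mice. Of 10 miRNAs antisense to Rtl1, 0 passed the threshold in limma (1 was higher after rescaling), with a median log2 difference of -0.24. Of 3 tested miRNAs in and near Rian, 1 fell, miR-370-3p, from 526 and 536 CPM to 232 and 274 CPM, and their median was -0.49. Of 52 miRNAs of the large cluster from miR-379 to miR-410 near Mirg, 13 fell and 1 rose (7 and 1 after rescaling), with a median of -0.42. In that cluster miR-487b-3p fell from 3831 and 4022 CPM to 1919 and 1777 CPM, and miR-3072-3p rose from 10.2 and 22.4 CPM to 42.1 and 37.2 CPM. For scale, 12.1% of all 456 tested miRNAs were called lower and 4.17% higher, with a median of -0.22. After rescaling, 25 of them were called lower and 39 higher. Whether these lists differ from the 9 miRNAs was not tested.

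For each of the 9 miRNAs the most similar profile among the other tested miRNAs was taken, by the root mean square difference of log2 levels over the 4 libraries after the mean of each miRNA was removed. With 4 libraries many profiles are alike, so these are descriptions. miR-673-5p and miR-540-3p, from hairpins on either side of the longest gap, were each other's nearest (0.0252), with levels of 112, 119, 91.3 and 73.1 CPM and of 144, 146, 115 and 91.4 CPM. miR-665-3p was nearest to miR-28a-3p (0.00333), miR-540-5p to miR-381-5p of the large cluster (0.0457), miR-337-5p to miR-874-3p (0.0494), miR-770-3p to miR-187-3p (0.0524) and miR-673-3p to miR-466a-3p and miR-466e-3p (0.0485). miR-337-3p was nearest to miR-144-3p (0.0776) and miR-770-5p to miR-451a (0.0873), both miRNAs of red blood cells. The next nearest were miR-669d-5p (0.199) and miR-466c-5p (0.262) for miR-337-3p, and miR-3106-5p (0.123) and miR-190a-3p (0.171) for miR-770-5p. miR-451a had 878 and 1810 CPM in the young and 1344 and 1684 CPM in the old mice, and its part in the level of miR-770-5p was not tested.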

How the data were processed

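Ago-RP-Seq data of 4 libraries were used, 2 from 2-month and 2 from 18-month mice, grouped by the sample labels. The authors de-multiplexed, trimmed (Trim Galore is named in the submitters' processing notes) and cleaned the reads, removed rare and artificial sequences, compared the rest by BLAST with mouse small RNAs, and deposited CPM (read counts scaled to the same total per library) for each of 85704 sequences of 15 to 33 nt. The seed viability is a score that the authors added for each 6mer. Versions of the authors' tools and the build behind the names are not given in the sources used here. Reads were recovered from the CPM values, all whole within 0.02 reads, with 0 per-sample columns left unassigned.

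Sequences were summed by miRNA name and by hairpin. Ages were compared on log2(CPM + 1) by limma (with a trend on intensity, two-sided, age as the only term) for miRNAs and hairpins averaging 10 CPM or more and sequences averaging 1 CPM or more, on the whole table, with Benjamini-Hochberg adjustment over all features tested. The pseudocount makes changes of rare sequences smaller. Shares have 95% Wilson intervals and exact permutation tests. Mature sequences and coordinates are those of RefSeq and the annotation on GRCm38.p6. The members and the lists were chosen with earlier results of these data known. Named miRNAs were the 9 members, from each list up to 2 called miRNAs with the largest absolute log2 change and no overlap between ages, and the 3 most similar profiles of each member, of which the nearest is given. The nearest neighbours and marker miRNAs are named besides. Forms and substitutions were chosen after their values were seen.

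Alternatives were pseudocounts of 0.1 and 5, no filter, minimums of 100 and 10 CPM, rescaling by the median of ratios, DESeq2 and edgeR (quasi-likelihood) run on recovered reads, no trend, adjusted p, the replicate number as a block, reads of 19 to 25 nt only, and each library left out. The fits were tested on simulated data. The software was limma 3.58.1, DESeq2 1.42.0 and edgeR 4.0.16 under R 4.3.3, and scipy 1.17.1, pandas 2.3.3, numpy 2.4.6 and matplotlib 3.10.9 under Python 3.11.15.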

Additional observations from a re-analysis of the deposited data

Results flagged for a closer look

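Reads that lie on the hairpins but carry no miRNA name in the table are outside the levels of the 9 miRNAs. They reached 61.2 CPM for mir-337 (46.3 and 61.2 CPM in the young and 20.6 and 59.1 CPM in the old mice), in 88 sequences that hold 7.49% of the reads of that hairpin. They reached 8.17 CPM for mir-770 (36 sequences) and 3.78 CPM for mir-540 (9 sequences), all above the 0.331 CPM that 3 reads are worth in the shallowest library. For mir-337, 46.5% of these reads begin at the RefSeq start of miR-337-3p, 24.9% begin 1 base upstream of it and 21.7% begin at the start of miR-337-5p.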

How the results depend on the processing

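No call of the 9 miRNAs or their hairpins passed adjustment in limma, edgeR or DESeq2. The number of miRNAs called over the table, 74, was 125 with no filter, 43 with the stricter filter and 1 after adjustment (19 in DESeq2), and 55 to 74 with a library left out. For hairpins, 54 became 85, 34 and 0 (22 after adjustment in DESeq2), and 48 to 57. For sequences, 1443 became 3327, 424 and 6, with 941 for DESeq2 and 1065 to 1411 with a library left out. After rescaling, calls higher at 18 months went from 25.7% to 60.9% of the miRNAs called, 18.5% to 46.9% of the hairpins and 58.1% to 81.7% of the sequences, with a shift of the median of all miRNAs from -0.22 to -0.01. Whether the replicate numbers pair the libraries cannot be told from 2 pairs (correlation of their deviations 0.18). With the replicate number as a block 79 miRNAs were called, and the calls of the 9 miRNAs and 5 hairpins did not change side of the threshold. The standard error of miR-540-5p went from 0.45 to 0.16 with this block, and that of miR-337-3p from 0.55 to 0.35. Changes of sign were seen for the mir-770 hairpin (0.15 after rescaling, 0.14 with edgeR, 0.12 with DESeq2) and, for the share of the leading seed of miR-665-3p, with sequences of at least 1 CPM only (-0.44 points). With a library left out, log2 changes ran from -0.36 to 0.89 for miR-770-5p, -1.69 to 0.015 for miR-337-3p, -0.92 to 0.14 for miR-540-5p, -0.083 to 0.26 for miR-665-3p, -0.38 to 0.26 for the mir-770 hairpin and -0.053 to 0.25 for the mir-665 hairpin. Differences of shares ran from -18.4 to 12.5 points (3p arm of mir-337), -13.2 to 9.16 (mir-540), -26.3 to -1.33 (mir-770), -4.99 to -1.53 (mir-673), -0.65 to 10.7 (leading seed and start of miR-770-3p), -0.26 to 1.75 (miR-770-5p), -0.0108 to 0.590 (miR-665-3p), -0.15 to 6.74 (A3G of miR-540-5p) and -0.95 to 0.20 (A4G of miR-770-5p). The summed difference of the 9 ran from -569 to -182 CPM, and was -148 CPM after rescaling. A lone library was assumed to vary like the other age. Causes of these shifts were not tested. With 2 libraries per age no share could reach an exact p below 0.333, and for miR-673-3p the lowest library held 65 reads.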

Other observations

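The 3′ ends of the 9 miRNAs were often not those of RefSeq. On average over the 4 libraries, 96.5% of the miR-665-3p reads, 91.1% of the miR-770-5p reads and 63.3% of the miR-540-3p reads matched the genome beyond the RefSeq end. The part that matches the genome ended before it in 79.7% of the miR-673-3p reads, 57.0% of the miR-337-5p reads and 55.6% of the miR-540-5p reads. The RefSeq sequence itself made up 60.9% of the miR-337-3p reads, but 5.19% of the miR-770-5p reads and 2.86% of the miR-665-3p reads. Bases that do not match the genome at the 3′ end were most frequent for miR-770-3p, in 39.0% to 45.6% of its reads per library, and least frequent for miR-540-5p, in 1.02% to 3.01%.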
